A study of Saccharomyces cerevisiae with 8 samples.

Results

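Peroxins are the proteins that build peroxisomes, and 29 peroxin genes were followed here through a yeast sporulation experiment. They were taken as every target whose R64 standard symbol is PEX followed by digits, which gave 29 of 6713 targets, and all 29 passed the filter on low counts. Of these, 17 serve the import of enzymes into the peroxisome, 2 serve its membrane and 10 serve its proliferation, size and number. The experiment used BY4743, a diploid laboratory strain of Saccharomyces cerevisiae labelled wild-type, in 8 poly(A) RNA libraries. Libraries labelled prion carry the natural [SMAUG+] prion, a heritable form of the RNA-binding protein Vts1, and libraries labelled cured come from its selectively cured counterpart. Each state was sampled after 48 h of growth to saturation in preSPO medium and again after a further 14 h in SPO (sporulation) medium, with 2 replicates per combination. The series' design text describes other conditions, VTS1 overexpression and a vts1 deletion, so the sample labels were followed, and what the 2 states are rests on those labels alone. That text calls replicates biological without saying whether they came from separate clones, so p-values measure the spread between these libraries, which may be technical.

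Peroxisomes take up fully folded enzymes. Receptors bind a targeting signal on the cargo in the cytosol, dock at the peroxisomal membrane, release the cargo, and are then ubiquitinated and pulled back out for another round. In yeast, peroxisomes house the beta-oxidation of fatty acids and part of the glyoxylate cycle, and they are known to multiply when cells use fatty acids. The transcription factors Oaf1 and Pip2 act through the oleate response element, and Adr1 acts on many of the same genes when glucose is gone.

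Total estimated counts ranged from 4650288 to 71684771 per library, and the fewest reads of any member in a library were 46, for PEX18. MET17, a gene of methionine synthesis that differed between the states in preSPO medium (3207 and 3867 counts in prion, 0 and 1 in cured libraries), went against the state labels of 2 SPO libraries. It had 1363 counts in prion SPO replicate 1 and 1 in replicate 2, and 447 in cured SPO replicate 1 and 13 in replicate 2. Results on state in SPO medium therefore rest on doubtful labels, whereas the comparison of the media over both states sets the same 4 preSPO against the same 4 SPO libraries whichever way the SPO libraries are divided. Whether prion and cured cultures also differed in genotype, at MET17 or elsewhere, was not tested. In the comparisons of state, in either medium, and in the interaction, such a difference cannot be told apart from the prion. Prion preSPO replicate 2 lay closest to the SPO libraries among the preSPO ones, at -42.2 on a first principal component that held 79.6% of the variance, against -64.2 to -51.3 for the other 3. Of 6 early meiotic markers 6 rose in SPO medium, and their summed level was 68.7 to 70.5 CPM before and 233 to 309.8 CPM after the shift in prion and 70.9 to 77.0 and 205 to 213 CPM in cured libraries. Of 5 middle sporulation markers 3 rose, with 64.9 to 72.2 CPM before and 129 to 132 CPM after the shift in prion and 66.5 to 74.4 and 103 to 125 CPM in cured libraries. Of 4 late sporulation markers 1 rose (SPS100) and 1 fell (DIT1), with 69.8 to 81.1 CPM before and 1389 to 1882 CPM after the shift in prion and 129 to 132 and 1258 to 2518 CPM in cured libraries. The log2 fold changes of these 4 over both states ran from -0.54 to 7.97 with a median of 0.13, so the rise of the sum does not hold for each gene. Of 8 haploid markers 6 were tested and 5 rose, with 82.9 to 95.3 CPM before and 162 to 170.2 CPM after the shift in prion and 63.1 to 65.9 and 151 to 164 CPM in cured libraries. Over all genes tested, 34.2% rose and 34.0% fell in SPO medium. None of the markers that passed the filter on low counts was at 0 in any library. Markers that were not tested were left out of this check, so it cannot tell whether they were absent. The share of cells that had sporulated was not measured, and its part in the results was not tested. In bulk RNA, fewer cells expressing a gene and less RNA per cell cannot be told apart.

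The oleate response element is the promoter sequence that a reader would look for in this family, so the matches are shown first. The search used the letters CGGNNNTNA, then 9 to 12 N, then CCG, on both strands of the 500 bases before the start codon in the R64 genome. It matched 4 of 29 peroxin genes (13.8%) and 113 of 5993 promoters of all genes (1.89%). The matches are printed 5′ to 3′ on the strand of the gene with 12 bases on either side, with the fixed letters of the element in capitals.
PEX11: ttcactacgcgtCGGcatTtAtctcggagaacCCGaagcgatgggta
PEX6: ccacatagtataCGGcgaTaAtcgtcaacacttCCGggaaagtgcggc
PEX13: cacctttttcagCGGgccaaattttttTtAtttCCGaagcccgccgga
PEX5: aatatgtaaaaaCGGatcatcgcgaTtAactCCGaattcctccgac
The windows are chrXV:48744-48790 on the minus strand for PEX11, chrXIV:22742-22789 on the minus strand for PEX6, chrXII:537104-537151 on the plus strand for PEX13 and chrIV:950376-950421 on the plus strand for PEX5. In PEX11 and PEX6 the element reads along the gene, and in PEX13 and PEX5 it reads on the other strand. The log2 fold changes of PEX11, PEX6, PEX13 and PEX5 from preSPO to SPO medium were 1.99, 0.61, 0.60 and -0.032. On log2 TPM they were 1.15, -0.18, -0.19 and -0.80, and PEX5 was among the members that fell there. Among 23 peroxisomal enzymes and transporters the same search matched 12 (52.2%). A looser motif for Adr1, TTGGAG or TTGGGG on either strand, matched 9 of 29 members (31.03%) and 26.1% of all promoters, a share near the background. The middle sporulation element GNCACAAA matched 1 member (PEX19; 3.45% against 6.96% of all promoters), and the URS1 core TCGGCGGC of early meiotic genes matched 0 (against 1.42%).

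Levels were compared between genes in TPM, which divides by length. In preSPO medium the highest member was PEX19, the cytosolic chaperone and import receptor for peroxisomal membrane proteins, at 145 ± 33.8 TPM (SD over 4 libraries of both states). It was followed by PEX34, which encodes a membrane protein that promotes proliferation, at 85.4 ± 25.8 TPM, and PEX21 at 81.2 ± 26.6 TPM. The 4 libraries of PEX34 overlapped with those of PEX21, and those of PEX19 lay above both. At the low end stood PEX9 at 5.70 ± 0.743 TPM and PEX18 at 6.25 ± 0.628 TPM, whose libraries overlapped. In SPO medium PEX34 was highest at 161 ± 35.3 TPM, PEX19 followed at 98.3 ± 22.7 TPM with overlapping libraries, and PEX31 was lowest at 4.67 ± 1.47 TPM. PEX18 moved from rank 28 of 29 to rank 5, PEX22 from 23 to 7 and PEX11 from 13 to 4. PEX25 moved the other way, from rank 6 to rank 21.

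**Figure D1:**
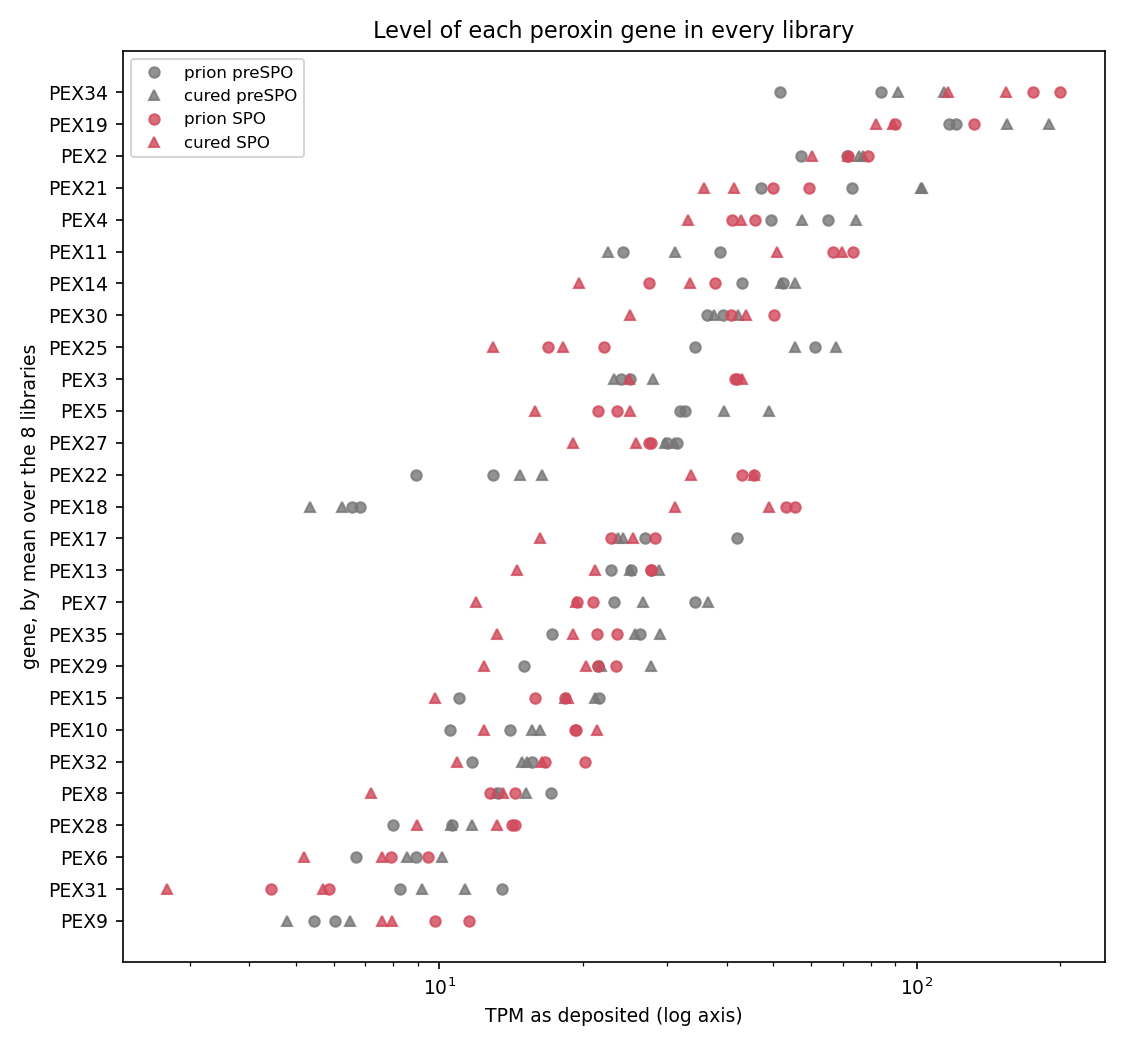
Level of 27 peroxin genes in TPM (log axis) in all 8 libraries, with genes ordered by their mean; grey marks preSPO and red marks SPO libraries, circles prion and triangles cured. PEX18 and PEX22 have all 4 red points to the right of all 4 grey points, and PEX25 has them to the left.

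The main comparison asked how peroxin genes answered SPO medium, over both states. Of 29 members 20 rose and 1 fell by edgeR's quasi-likelihood test, with p-values adjusted over all genes by Benjamini and Hochberg, although 10 of the 20 had a log2 fold change below 0 on log2 TPM. Of all 6346 genes tested, 34.2% rose and 34.0% fell, 68.2% in all. The median log2 fold change of the members was 0.60, against 0.02 over all genes. The 4 preSPO and 4 SPO libraries did not overlap in CPM (read counts relative to the TMM-scaled library size) for 21 members, 19 higher and 2 lower in SPO medium, against 58.7% of all genes in either direction. The share of all genes in each direction was not counted, nor was any share in TPM. In TPM the media were apart with SPO higher for PEX9, PEX18, PEX22, PEX11 and PEX34. They were apart with SPO lower for PEX5, PEX7, PEX14, PEX4, PEX25, PEX27 and PEX31. The scaling moved these values: the median of all genes was -0.27 with library size alone and -0.72 on log2 TPM. With library size 11 members rose and 2 fell (23.4% and 42.4% of all genes), and limma-trend on log2 TPM gave 6 and 8 (12.5% and 57.8%). All 20 that rose with TMM lay above the median of all genes under both of these scalings. With TMM, RLE, library size and log2 TPM alike, 6 members rose, namely PEX18, PEX22, PEX11, PEX34, PEX9 and PEX3, and PEX25 fell. The summed level of the 29 genes was 1578 to 1889 CPM in preSPO and 2393 to 2767 CPM in SPO libraries, while their summed TPM overlapped, at 805 to 1117 and 750.5 to 1106. With the culture as a block (by the labels, a culture gave 1 preSPO and 1 SPO library), 20 rose and 2 fell, PEX31 being added. Without the 2 libraries whose MET17 went against their label, 15 rose and 1 fell, and PEX8, PEX15, PEX17, PEX27 and PEX35 were no longer called.

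**Figure D2:**
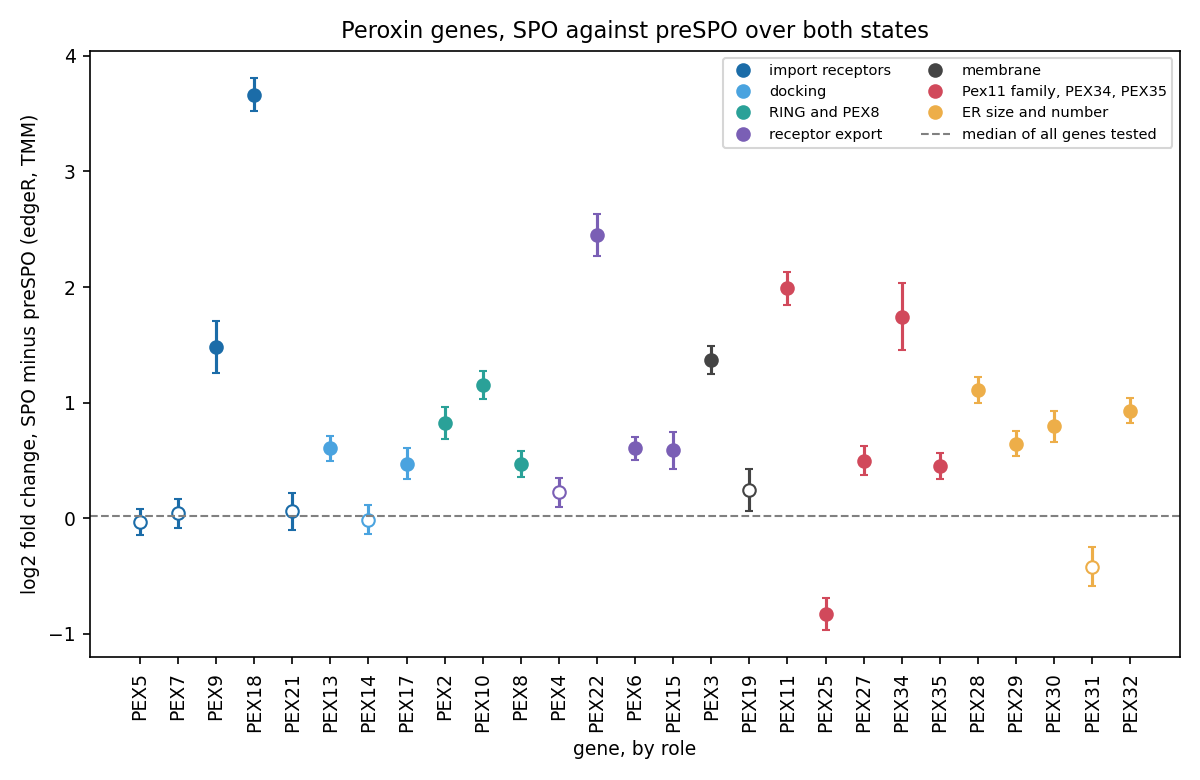
Log2 fold change of 27 peroxin genes, SPO minus preSPO over both states, by edgeR with TMM scaling; bars are standard errors, filled points passed an adjusted p of 0.05, and the dashed line is the median of all genes. PEX18 is highest at 3.66 and PEX25 lowest at -0.83; on log2 TPM 9 of the 19 filled points above the line change sign.

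By role, 11 of 17 import peroxins rose and 0 fell (median 0.59), 1 of 2 membrane peroxins rose (median 0.81), and 8 of 10 proliferation peroxins rose and 1 fell (median 0.72), against 34.2% higher and 34.0% lower over all genes, all with TMM. With library size 5 import peroxins rose and 0 fell, 1 membrane peroxin rose, and 5 proliferation peroxins rose and 2 fell, against 23.4% and 42.4% of all genes. On log2 TPM 3 import peroxins rose and 5 fell, 1 membrane peroxin rose and 1 fell, and 2 proliferation peroxins rose and 2 fell, against 12.5% and 57.8%. The class medians were then -0.19, -0.0038 and -0.075, where all genes had -0.72. Differences between the classes were not tested. The range within a class was wider than the gap between class medians: import peroxins ran from -0.032 to 3.66 and proliferation peroxins from -0.83 to 1.99.

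Among the 5 import receptors and co-receptors, 2 rose, PEX18 and PEX9, where 34.2% of all genes rose. The median log2 fold change of these 5 was 0.060. PEX18 encodes a co-receptor that Pex7 needs to import cargo with a PTS2 signal (chromosome VIII, 419221 to 420072, minus strand). PEX18 had 8.45 and 10.1 CPM before and 110.3 and 121 CPM after the shift to SPO medium in libraries labelled prion, against 6.37 and 8.68 before and 101 and 97.9 after it in cured ones. All 4 SPO libraries were far above all 4 preSPO libraries, a 12.7-fold difference (log2 fold change 3.66, SE 0.143, edgeR adjusted p = 3.54e-07). On log2 TPM the rise of PEX18 was smaller, at 2.71. PEX21 encodes the related co-receptor. PEX21 had 92.8 and 73.9 CPM before and 101 and 139 CPM after the shift to SPO medium in libraries labelled prion, against 124 and 145 before and 87.3 and 115 after it in cured ones. Its media overlapped, and its log2 fold change was 0.060 (SE 0.160, edgeR adjusted p = 0.752; -0.74 on log2 TPM, with a limma adjusted p of 0.00263).

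PEX9 encodes an import receptor known to carry a small group of PTS1 proteins, malate synthase among them. PEX9 had 13.6 and 18.6 CPM before and 38.8 and 52.5 CPM after the shift to SPO medium in libraries labelled prion, against 11.4 and 18.1 before and 31.3 and 50.01 after it in cured ones. The media did not overlap, with a 2.80-fold rise (log2 fold change 1.48, SE 0.224, edgeR adjusted p = 0.000391). On log2 TPM the rise of PEX9 was smaller, at 0.60 (limma adjusted p = 0.0414). PEX5 encodes the general PTS1 receptor, to which Pex9 is related. PEX5 had 98.5 and 119 CPM before and 113 and 119 CPM after the shift to SPO medium in libraries labelled prion, against 141 and 133 before and 125 and 121 after it in cured ones. The media overlapped, with a log2 fold change of -0.032 (SE 0.115, edgeR adjusted p = 0.818; -0.80 on log2 TPM, with a limma adjusted p of 0.00261). The PTS2 receptor gene PEX7 lay between 49.9 and 66.7 CPM in every library, with a log2 fold change of 0.044 (SE 0.126). In TPM its SPO libraries were all lower, and on log2 TPM it had -0.73 (limma adjusted p = 0.00837).

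The docking complex receives loaded receptors at the membrane. PEX13 encodes a docking subunit with an SH3 domain. PEX13 had 45.2 and 50.8 CPM before and 79.5 and 91.6 CPM after the shift to SPO medium in libraries labelled prion, against 49.6 and 50.3 before and 63.3 and 65.9 after it in cured ones. The media did not overlap and prion SPO libraries were the highest, and PEX13 rose by 0.60 on the log2 scale (SE 0.108, edgeR adjusted p = 0.00109) with TMM but had -0.19 on log2 TPM. PEX17 had 33.1 and 26.3 CPM before and 35.6 and 33.2 CPM after the shift to SPO medium in libraries labelled prion, against 17.9 and 21.5 before and 33.3 and 32.5 after it in cured ones. PEX17, which encodes a partner of Pex14, overlapped between media in prion preSPO replicate 1, and rose by 0.47 on the log2 scale (SE 0.135, edgeR adjusted p = 0.0123) with -0.31 on log2 TPM. Its call was lost without cured preSPO replicate 1 (adjusted p = 0.051) or prion SPO replicate 1 (adjusted p = 0.0505), both by edgeR. PEX14, the core docking subunit, lay between 77.0 and 96.4 CPM in all libraries (log2 fold change -0.012, SE 0.123). In TPM its SPO libraries (19.7 to 37.7) were all below its preSPO libraries (43.0 to 55.5). On log2 TPM it was called lower, at -0.79 (limma adjusted p = 0.00263). Estimated counts of PEX14 and PEX2 were not whole, and how the authors' quantification divided reads of these 2 genes is uncertain.

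RING proteins such as Pex2 and Pex10 form the ubiquitin ligase that acts on receptors, and Pex8 links it to the docking complex. PEX2, PEX10 and PEX8 rose with TMM, PEX8 being below 0 on log2 TPM. PEX10 had 21.5 and 20.0 CPM before and 47.2 and 54.2 CPM after the shift to SPO medium in libraries labelled prion, against 23.8 and 26.8 before and 54.4 and 48.1 after it in cured ones. Each SPO library was above each preSPO library in CPM (log2 fold change 1.15, SE 0.120, edgeR adjusted p = 4.74e-05). In TPM the media of PEX10 overlapped, and on log2 TPM it had 0.33 and was not called (limma adjusted p = 0.249). PEX2 had 84.1 and 83.4 CPM before and 135 and 171 CPM after the shift to SPO medium in libraries labelled prion, against 86.7 and 99.5 before and 141 and 179 after it in cured ones. The media did not overlap for PEX2 (log2 fold change 0.83, SE 0.138, edgeR adjusted p = 0.000713), which had 0.011 on log2 TPM and was not called there. PEX8 had 49.5 and 47.4 CPM before and 66.4 and 67.7 CPM after the shift to SPO medium in libraries labelled prion, against 41.9 and 42.4 before and 65.3 and 52.5 after it in cured ones. The media were apart by a narrow margin, and PEX8 rose by 0.47 on the log2 scale (SE 0.112) with TMM against -0.31 on log2 TPM.

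Receptors leave the membrane after Pex4, a ubiquitin-conjugating enzyme anchored by Pex22, has marked them, and AAA ATPases such as Pex6, held by Pex15, pull them out. Within this group the anchor PEX22 stood out in size (chromosome I, 42177 to 42719, plus strand). PEX22 had 6.14 and 11.1 CPM before and 49.9 and 54.2 CPM after the shift to SPO medium in libraries labelled prion, against 10.8 and 11.3 before and 52.2 and 58.6 after it in cured ones. Prion preSPO replicate 1 was the lowest library and the 4 SPO libraries lay close together, a 5.47-fold rise (log2 fold change 2.45, SE 0.182, edgeR adjusted p = 7.30e-06). On log2 TPM the rise of PEX22 was smaller, at 1.61. PEX4 had 45.9 and 43.2 CPM before and 46.1 and 59.2 CPM after the shift to SPO medium in libraries labelled prion, against 50.1 and 45.3 before and 50.1 and 59.0 after it in cured ones. The media of PEX4 overlapped in CPM, with a log2 fold change of 0.22 (SE 0.126, edgeR adjusted p = 0.142). In TPM its SPO libraries were all lower, and on log2 TPM it had -0.58 (limma adjusted p = 0.0188). PEX6 had 46.8 and 43.5 CPM before and 79.4 and 76.2 CPM after the shift to SPO medium in libraries labelled prion, against 50.8 and 50.2 before and 66.2 and 69.4 after it in cured ones. PEX6 was separate between media and rose by 0.61 on the log2 scale (SE 0.101) with TMM against -0.18 on log2 TPM. PEX15 had 38.4 and 24.2 CPM before and 51.9 and 51.8 CPM after the shift to SPO medium in libraries labelled prion, against 36.0 and 36.4 before and 55.1 and 44.1 after it in cured ones. PEX15 was lowest in prion preSPO replicate 2 and rose by 0.59 on the log2 scale (SE 0.159) with TMM against -0.19 on log2 TPM.

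Of the 2 membrane peroxins, PEX3 rose and PEX19 was not called. PEX3 encodes the membrane anchor on which Pex19 delivers membrane proteins (chromosome IV, 1126270 to 1127595, minus strand). PEX3 had 52.3 and 62.0 CPM before and 140.1 and 159.9 CPM after the shift to SPO medium in libraries labelled prion, against 56.1 and 54.2 before and 149 and 132 after it in cured ones. The SPO libraries were all at least 132 CPM and the preSPO libraries at most 62.0 (log2 fold change 1.37, SE 0.120, edgeR adjusted p = 1.79e-05). In TPM the media of PEX3 overlapped, and on log2 TPM it had 0.55 (limma adjusted p = 0.0361). PEX19 had 189 and 225 CPM before and 328 and 258 CPM after the shift to SPO medium in libraries labelled prion, against 230.4 and 330.1 before and 231 and 324 after it in cured ones. PEX19 overlapped between media (log2 fold change 0.24, SE 0.180, edgeR adjusted p = 0.255), and on log2 TPM it had -0.56 with a limma adjusted p of 0.016.

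**Figure D3:**
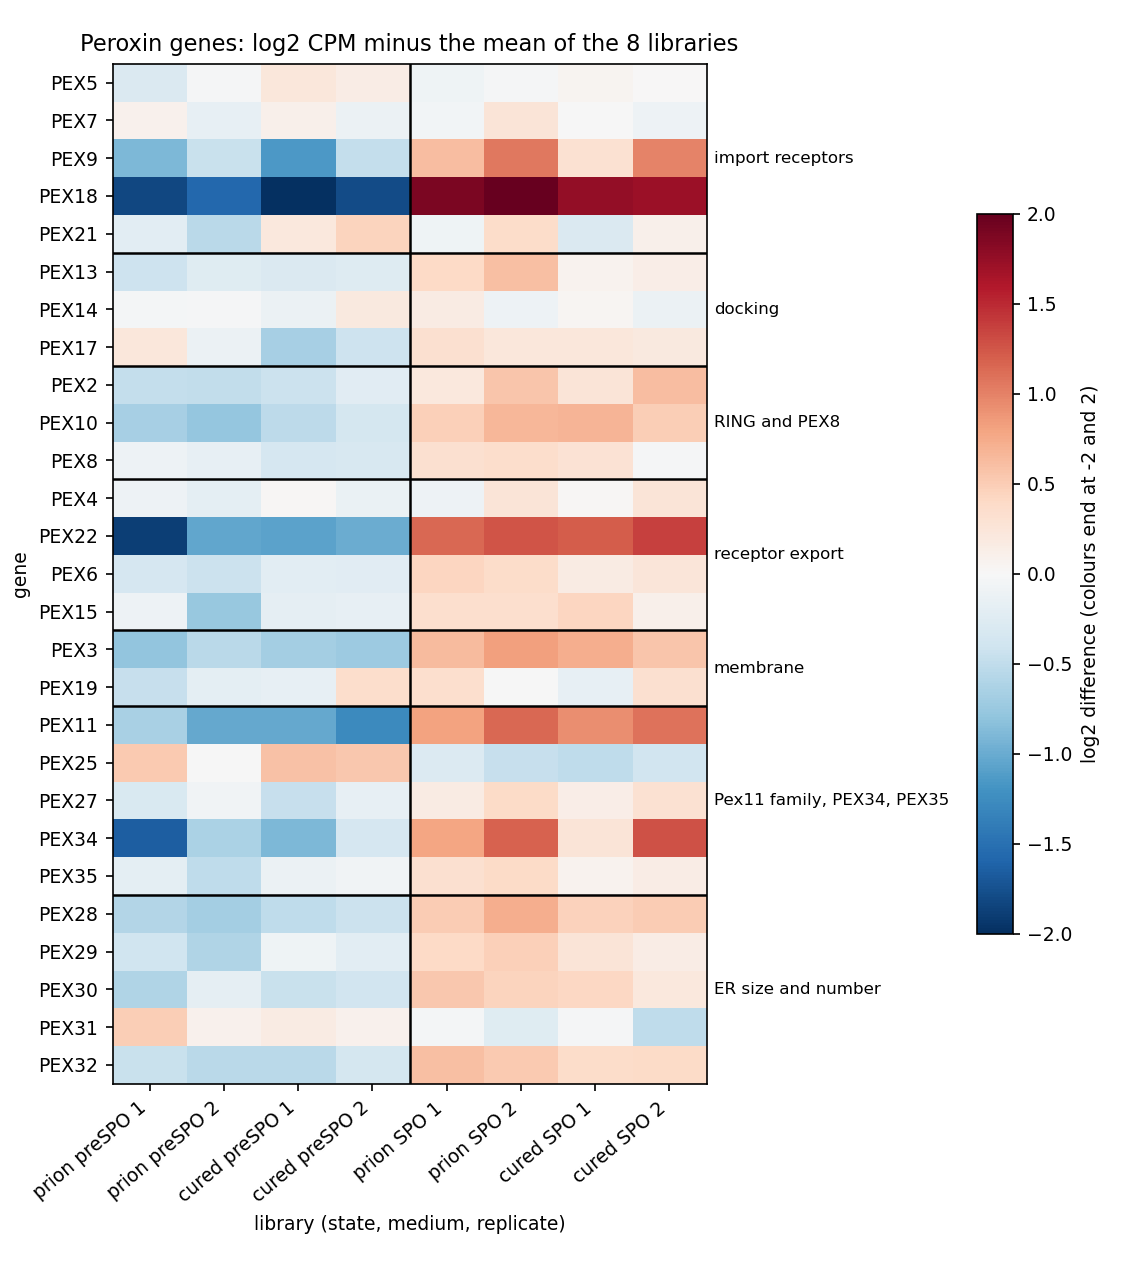
Log2 CPM of 27 peroxin genes, each minus its mean over the 8 libraries, genes by role in rows and libraries in columns; colours end at -2 and 2. The 4 SPO columns are red for most genes, and PEX25 and PEX31 are the rows with the colours turned; on log2 TPM 9 of the 19 rising genes shown have a fold change below 0.

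Members of the Pex11 family, which elongates and divides peroxisomes, moved in opposite directions. PEX11 encodes the main membrane-elongating factor (chromosome XV, 47933 to 48643, minus strand). PEX11 had 38.3 and 29.7 CPM before and 105 and 134 CPM after the shift to SPO medium in libraries labelled prion, against 29.5 and 24.9 before and 115 and 128 after it in cured ones. All SPO libraries were above all preSPO libraries, 3.97-fold (log2 fold change 1.99, SE 0.143, edgeR adjusted p = 6.38e-06). On log2 TPM the rise of PEX11 was smaller, at 1.15. PEX25 encodes a family member that acts with Pex11 and is known to be needed for forming peroxisomes anew (chromosome XVI, 337436 to 338620, minus strand). PEX25 had 113 and 78.2 CPM before and 64.7 and 56.9 CPM after the shift to SPO medium in libraries labelled prion, against 119 and 114 before and 55.6 and 60.1 after it in cured ones. Here the SPO libraries were all lower, with 78.2 CPM in prion preSPO replicate 2 the nearest preSPO value, and PEX25 was the member that fell (log2 fold change -0.83, SE 0.139, edgeR adjusted p = 0.000722; -1.57 on log2 TPM). PEX27 had 54.8 and 64.5 CPM before and 76.3 and 88.7 CPM after the shift to SPO medium in libraries labelled prion, against 49.4 and 60.5 before and 74.6 and 84.1 after it in cured ones. PEX27, the third member of the family, rose by 0.50 on the log2 scale (SE 0.126) with TMM against -0.29 on log2 TPM. In TPM each of its SPO libraries lay below each preSPO library.

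PEX34 encodes a membrane protein that works with this family in setting peroxisome number. PEX34 had 25.6 and 51.6 CPM before and 138 and 181 CPM after the shift to SPO medium in libraries labelled prion, against 43.1 and 63.1 before and 95.7 and 193 after it in cured ones. Replicates differed within each medium, from 25.6 to 63.1 CPM in preSPO, but the media did not overlap, a 3.35-fold rise (log2 fold change 1.74, SE 0.288, edgeR adjusted p = 0.000669). In TPM the media of PEX34 were apart by a narrow margin, at most 114 in preSPO and at least 116 in SPO libraries. On log2 TPM its rise was smaller, at 0.94. PEX35 had 45.8 and 37.1 CPM before and 65.4 and 68.4 CPM after the shift to SPO medium in libraries labelled prion, against 48.3 and 49.9 before and 55.1 and 58.2 after it in cured ones. PEX35, whose product is known to affect peroxisome abundance, rose by 0.45 on the log2 scale (SE 0.112) with TMM against -0.34 on log2 TPM.

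A second group of proliferation genes, PEX28 to PEX32, encodes membrane proteins of the endoplasmic reticulum that limit peroxisome size or number. With TMM 4 of 5 rose, against 34.2% of all genes. PEX28 had 30.1 and 28.1 CPM before and 64.2 and 74.9 CPM after the shift to SPO medium in libraries labelled prion, against 31.7 and 33.4 before and 62.1 and 64.4 after it in cured ones. PEX32 had 30.3 and 28.2 CPM before and 62.4 and 59.1 CPM after the shift to SPO medium in libraries labelled prion, against 28.2 and 32.4 before and 52.8 and 53.5 after it in cured ones. Both were separate between media in CPM, with log2 fold changes of 1.11 (SE 0.109) and 0.93 (SE 0.109). In TPM the media overlapped for both, and on log2 TPM neither was called, PEX28 having 0.28 (limma adjusted p = 0.34) and PEX32 0.12 (limma adjusted p = 0.675). PEX30 had 92.1 and 123 CPM before and 202 and 189.9 CPM after the shift to SPO medium in libraries labelled prion, against 102 and 107 before and 185 and 161 after it in cured ones. PEX30, which shapes the sites where new peroxisomes form, rose by 0.80 on the log2 scale (SE 0.133) with TMM against -0.00016 on log2 TPM. PEX29 had 58.1 and 50.3 CPM before and 101 and 106 CPM after the shift to SPO medium in libraries labelled prion, against 71.4 and 65.9 before and 91.2 and 84.9 after it in cured ones. PEX29 rose by 0.65 on the log2 scale (SE 0.109) with TMM against -0.15 on log2 TPM. PEX31, a paralog of PEX30, had values in the opposite order. PEX31 had 29.8 and 22.6 CPM before and 20.6 and 17.9 CPM after the shift to SPO medium in libraries labelled prion, against 23.8 and 22.6 before and 20.9 and 15.01 after it in cured ones. Its SPO libraries were lower without overlap, and its log2 fold change of -0.42 (SE 0.169) just missed the threshold (edgeR adjusted p = 0.051; 0.0261 with the culture as a block). It passed without prion preSPO replicate 2 (edgeR adjusted p = 0.0257) or cured SPO replicate 1 (edgeR adjusted p = 0.0206).

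Ratios of 2 members within a library do not depend on how libraries are scaled. For 10 pairs, paralogs or partners chosen with the values known, the TPM ratio is given for each medium as a description, with no test. The ratio of PEX18 to PEX21 was 0.0526 to 0.139 in preSPO and 0.869 to 1.19 in SPO libraries, so the co-receptor transcripts went from unequal to about equal. PEX22 to PEX4 was 0.137 to 0.262 in preSPO and 0.937 to 1.11 in SPO libraries. PEX11 to PEX25 was 0.406 to 0.706 in preSPO and 3.02 to 4.37 in SPO libraries, and PEX27 to PEX25 was 0.440 to 0.870 in preSPO and 1.24 to 1.65 in SPO libraries. PEX9 remained below PEX5, at 0.0977 to 0.189 in preSPO and 0.302 to 0.537 in SPO libraries, as did PEX3 below PEX19, at 0.122 to 0.207 in preSPO and 0.305 to 0.483 in SPO libraries. PEX30 to PEX31 was 2.69 to 4.74 in preSPO and 7.72 to 9.34 in SPO libraries, and PEX28 to PEX29 was 0.423 to 0.532 in preSPO and 0.608 to 0.723 in SPO libraries. These 8 pairs did not overlap between media and were higher in 4 of 4 SPO libraries, which describes pairs picked with the values known. The share of pairs of other genes without overlap was not counted, and 58.7% of single genes did not overlap between media in CPM. PEX10 to PEX2 and PEX17 to PEX14 overlapped, with log2 differences of 0.34 and 0.49.

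**Figure D4:**
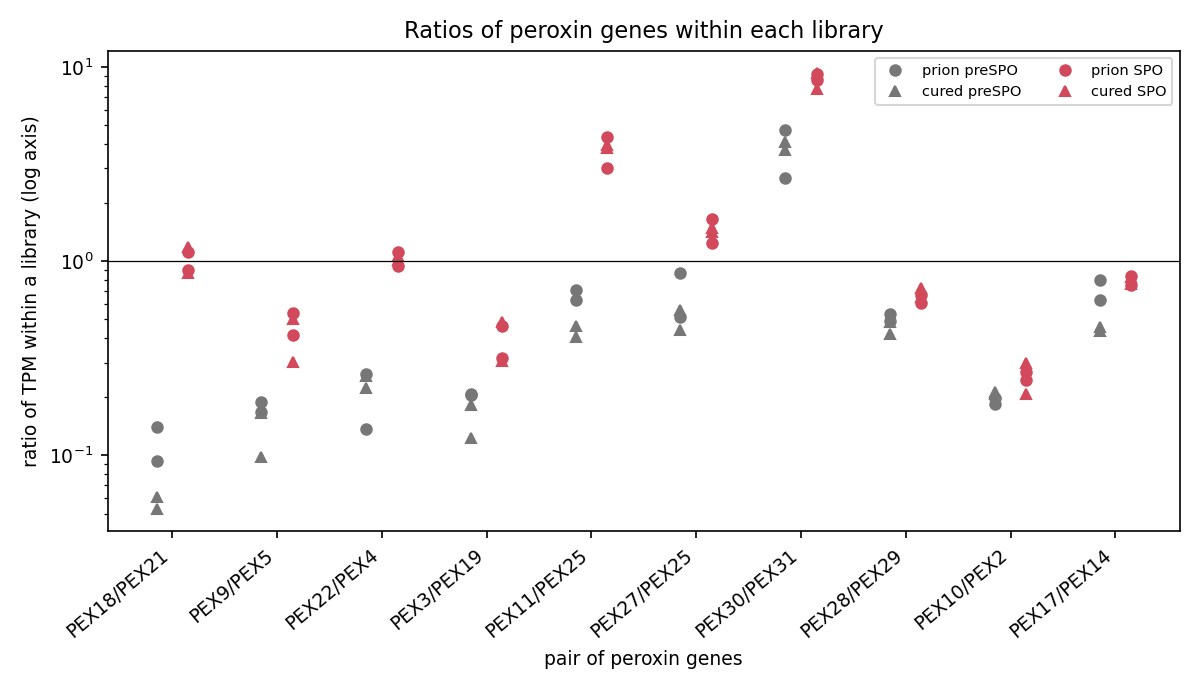
Ratio of TPM values of 10 pairs of peroxin genes within each library (log axis); grey marks preSPO and red marks SPO libraries, circles prion and triangles cured, and the line marks a ratio of 1. In SPO libraries PEX18 to PEX21 and PEX22 to PEX4 lie around 1, and PEX11 to PEX25 lies above it.

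The same response was then examined in each state. In libraries labelled prion 18 members rose and 1 fell (26.2% and 27.1% of all genes, 53.3% in all), and in libraries labelled cured 15 rose and 1 fell (28.6% and 28.6%, 57.2% in all), by the same edgeR test with TMM. Scaling changed these counts and, in cured libraries, which direction was the more frequent. With library size 15 rose and 1 fell in prion (19.1% and 29.9% of all genes) and 8 rose and 2 fell in cured libraries (17.0% and 39.3%). On log2 TPM limma-trend gave 4 higher and 2 lower in prion (10.8% and 39.3% of all genes) and 3 higher and 8 lower in cured libraries (8.65% and 54.6%). The members' median was then 0.15 in prion and -0.50 in cured libraries, against -0.56 and -0.89 over all genes. The 2 cured SPO libraries differed in the summed TPM of the members, at 956 in replicate 1 and 750 in replicate 2. Calls on log2 TPM were not repeated with libraries left out, so their dependence on replicate 2 was not tested. With TMM the cured count was 8 without cured preSPO replicate 1, and the member that fell, PEX25, was not called in prion libraries without prion preSPO replicate 1, prion SPO replicate 1 or prion SPO replicate 2. On the log2 scale PEX18 rose by 3.64 in prion libraries (SE 0.202) and by 3.69 in cured ones (SE 0.202), PEX11 had 1.82 and 2.16, and PEX25 had -0.65 and -1.004. The interaction, which tests whether the response differed between states, was called for 0 of 29 members by edgeR (0.0158% of all genes) and for 0 by DESeq2 or limma-trend. By edgeR 3 members had an unadjusted p under 0.05, as did 791 of all 6346 genes. Among these members were PEX21 at -0.93 (SE 0.320, edgeR adjusted p = 0.306) and PEX29 at -0.58 (SE 0.216), cured minus prion.

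The state itself was compared in each medium. In preSPO medium 0 of 29 members were called between cured and prion by edgeR (0.93% of all genes were, 0.457% with cured higher and 0.473% with cured lower), DESeq2 or limma-trend. By edgeR 3 members had an unadjusted p under 0.05, as did 1264 of all 6346 genes. PEX21 was 92.8 and 73.9 CPM in prion and 124 and 145 CPM in cured libraries, a log2 difference of 0.69 (SE 0.227, edgeR adjusted p = 0.158). PEX17 had -0.59 (SE 0.192, edgeR adjusted p = 0.158). The states did not overlap for 14 members, 11 with cured higher (23.0% of all genes) and 3 with cured lower (23.9%). The median difference was 0.10, against -0.00 for all genes. In SPO medium 0 of 29 were called by the same tools (0.0315% of all genes by edgeR), and 1 had an unadjusted p under 0.05 by edgeR: PEX13 at -0.40 (SE 0.152, edgeR adjusted p = 1). Of all 6346 genes, 154 had an unadjusted p under 0.05 by edgeR in SPO medium. There 2 members had cured higher without overlap (16.1% of all genes) and 8 had cured lower (16.2%), with a median difference of -0.13 against 0.01 for all genes. The MET17 counts leave the labels of 2 of these libraries in doubt. These tests do not show that the states were alike: standard errors of a member ranged up to 0.403 on the log2 scale.

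**Figure D5:**
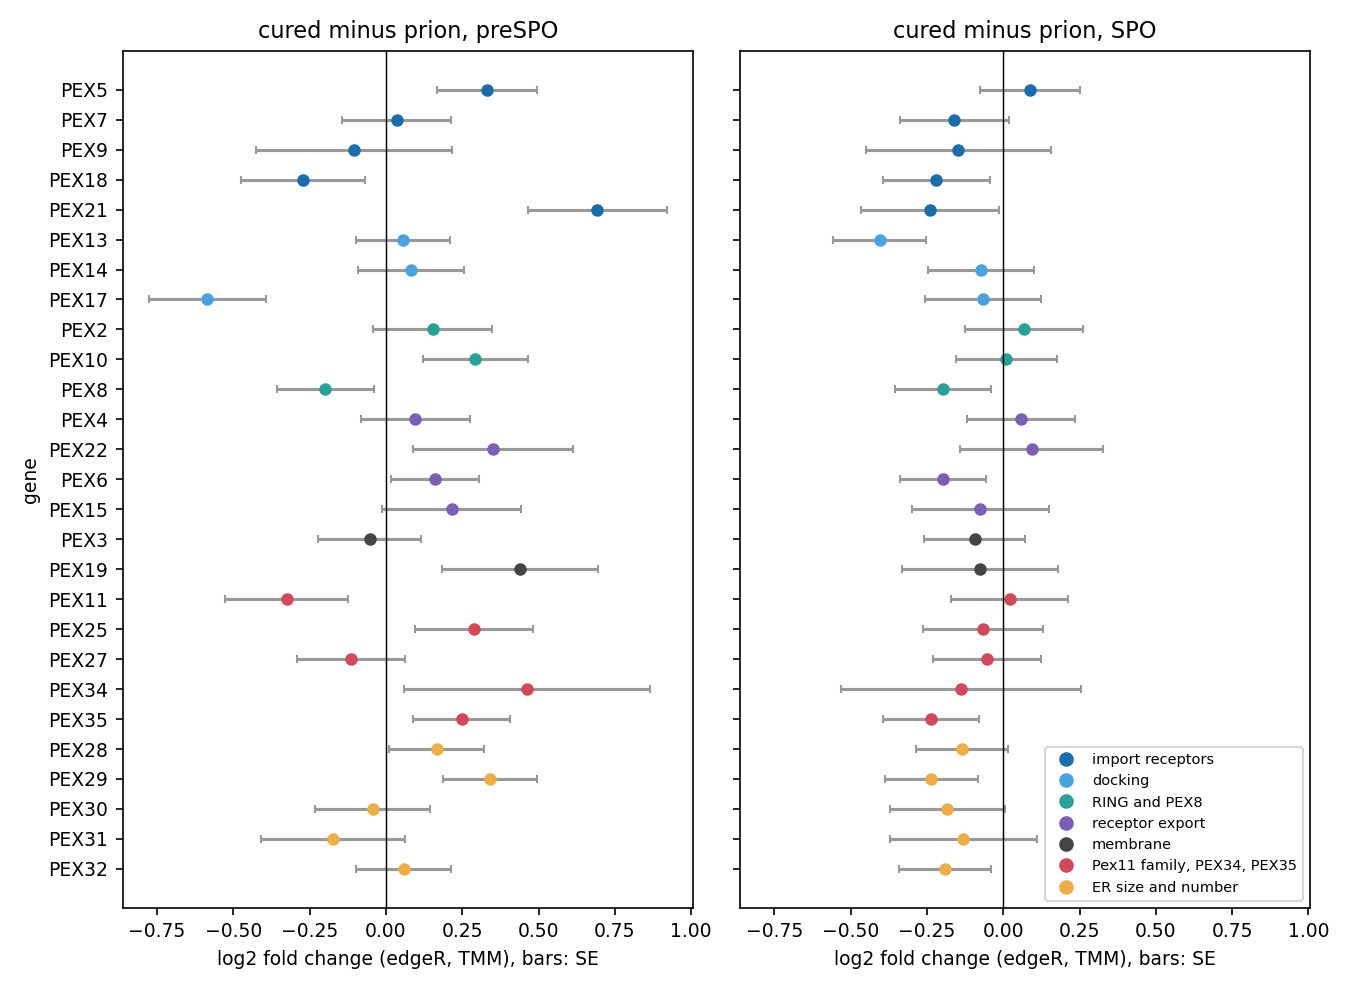
Log2 difference of cured minus prion for 27 peroxin genes in preSPO (left) and SPO medium (right), by edgeR with TMM scaling; bars are standard errors and colours mark roles. No point passed the adjusted threshold, and the points run from -0.59 to 0.69 in preSPO and from -0.40 to 0.093 in SPO medium.

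Because Vts1 binds RNA hairpins with a CNGG loop, coding sequences were searched for a loop of CNGG or CNGGN closed by 5 pairs, where G-U counted as a pair. A hairpin was found in 6 of 29 peroxin genes (20.7%) and in 1107 of 5995 coding sequences (18.5%), a share near the background. The matches in PEX11 and PEX22, which are among the genes that rose most, are shown with the loop in capitals, as RNA.
PEX11: ucuuaCCGGuaaga
PEX22: auaggCAGGuuugu
They lie at chrXV:48268-48281 on the minus strand and chrI:42648-42661 on the plus strand. Other matches were in PEX15, PEX27 and PEX35. Between states none of these 6 genes was called in either medium, as given above, and untranslated regions were not searched.

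Other genes of the peroxisome were counted by list, by edgeR with TMM, and counts by list under other scalings are not given. Of 23 peroxisomal enzymes and transporters 20 rose and 3 fell in SPO medium over both states (34.2% and 34.0% of all genes), with a median log2 fold change of 2.94. POT1, the 3-ketoacyl-CoA thiolase of beta-oxidation and a PTS2 protein, went from 1.52 to 4.61 CPM in preSPO to 297 to 412 CPM in SPO libraries, a log2 fold change of 6.77 (SE 0.229). POX1, the acyl-CoA oxidase, had 5.46 (SE 0.174), CAT2, the carnitine acetyltransferase, 5.14 (SE 0.203), and CTA1, the peroxisomal catalase, 4.69 (SE 0.182). MLS1, a malate synthase and known cargo of Pex9, was chosen after its values were seen and rose by 5.203 (SE 0.214). Of 6 regulators 2 rose and 3 fell: ADR1 had 2.68 (SE 0.167) and CAT8 2.14 (SE 0.116), while OAF3, a repressor of oleate genes, had -1.26 (SE 0.109) and the kinase gene SNF1 -0.68 (SE 0.135). Of 7 genes of peroxisome fission and inheritance 1 rose and 2 fell. FIS1, the tail-anchored fission factor, had 1.93 (SE 0.192), VPS1, the dynamin-like GTPase, -1.22 (SE 0.127), and INP2, the receptor that moves peroxisomes into the bud, -0.59 (SE 0.129). Of 4 pexophagy genes 2 rose and 1 fell, with ATG36, the pexophagy receptor, at 2.08 (SE 0.136), ATG8 at 1.22 (SE 0.217) and ATG1 at -0.61 (SE 0.181). The call of ATG1 was lost without prion SPO replicate 2 (edgeR adjusted p = 0.0605). Fold changes of these genes also moved with the processing. Over the alternatives POT1 ran from 5.25 to 7.06, ATG8 from 0.43 to 1.39 and VPS1 from -1.97 to -1.15. In preSPO medium 1 of the 23 enzymes and transporters was called between states, against 0.93% of all genes. It was ANT1, the adenine nucleotide transporter, with a cured minus prion log2 difference of 0.92 (SE 0.167). Its edgeR adjusted p of 0.0484 was close to the threshold, and values under other scalings or tools are not given here.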

How the data were processed

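Poly(A) RNA was sequenced from 8 libraries of 4 groups of 2, and per the submitters' processing notes kallisto and the yeast build R64 were used; its version, index and strand setting were not given in the sources used here. The deposited values were estimated counts and TPM (relative abundance per transcript length) made by the authors for 6713 targets, of which 6026 matched a locus tag of the annotation and 6711 had a length divisible by 3, so lengths are coding lengths. Estimated counts were rounded to whole numbers and CPM were computed from them. The genes that passed filterByExpr (6346) were fitted with edgeR 4.0.16 (R 4.3.3) with TMM factors, as 4 group means with 4 residual degrees of freedom, the quasi-likelihood test and Benjamini-Hochberg adjustment over all genes; calls were made at an adjusted p of 0.05. SPO minus preSPO over both states is the mean of the differences in each state.

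Alternatives were DESeq2 1.42.0, library size or RLE factors, no filter, limma-trend (limma 3.58.1) on log2(TPM + 1), blocks by replicate number and by culture, and libraries left out. The growth protocol in the labels has each SPO library come from the culture of the preSPO library, so equal numbers within a state pair the libraries. Deviations from group means correlated at 0.07 in prion and 0.32 in cured libraries. Between groups of different states, which share no culture by the labels, they correlated at -0.049 to 0.18, so these values do not settle the pairing. MET17 counts go against that pairing. Replicates were not copies of one library: chi-square per degree of freedom was at least 34.4 in each group. Members and lists were chosen with earlier results of these data known. Counts and medians cover all 29 members, of which 2 are not reported here by name or plotted. Every other member may be named, with values per library for members called and for the 3 highest and 3 lowest by TPM; of other lists at most 4 called genes with the smallest p are named for the medium comparison. Outside this rule, values per library of PEX4, PEX5 and PEX21 and the gene MLS1 were added after their values were seen. The pairs for ratios were chosen after the values were seen, as was leaving libraries out of them. Promoters and coding sequences were read from the R64 genome and annotation of RefSeq. Of 232 values of members, 216 were whole estimated counts within 0.001.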

Additional observations from a re-analysis of the deposited data

How the results depend on the processing

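With library size in place of TMM, 11 members rose and 2 fell over both states, 8 rose and 2 fell in cured libraries (17.0% and 39.3% of all genes), and class medians were 0.30 (import), 0.52 (membrane) and 0.44 (proliferation); PEX7 (-0.25), PEX21 (-0.24), PEX4 (-0.078) and PEX19 (-0.049) turned negative. On log2 TPM, 6 rose and 8 fell over both states (12.5% and 57.8% of all genes), 4 and 2 in prion (10.8% and 39.3%) and 3 and 8 in cured libraries (8.65% and 54.6%), with class medians of -0.19, -0.0038 and -0.075. There PEX21 (-0.74), PEX7 (-0.73), PEX4 (-0.58), PEX19 (-0.56), PEX35 (-0.34), PEX17 (-0.31), PEX8 (-0.31), PEX27 (-0.29), PEX13 (-0.19), PEX15 (-0.19), PEX6 (-0.18), PEX29 (-0.15) and PEX30 (-0.00016) turned negative. Without a filter, and with either replicate block, 2 members fell over both states and 20 rose. Leaving out each library in turn gave 19 to 20 risers and 1 to 2 fallers over both states (2 without prion preSPO replicate 2 or cured SPO replicate 1), 14 to 18 and 0 to 1 in prion, and 8 to 17 and 1 to 1 in cured libraries. Class medians then ran from 0.45 to 0.59, 0.75 to 0.87 and 0.68 to 0.75. PEX5 ran from -0.10 to 0.036, PEX7 from -0.048 to 0.11, PEX14 from -0.090 to 0.074 and PEX21 from -0.072 to 0.16. Without both libraries whose MET17 goes against their label, 15 rose and 1 fell over both states, 0 fell in prion libraries, PEX7 was -0.068 and PEX14 was 0.0032. No alternative called a member between states or for the interaction. The cause of these shifts was not tested. With 2 libraries a group, small state differences may be missed.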

Other observations

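Upstream neighbours were listed for each peroxin gene after its values were seen, as values with no explanation. UBX5, divergent from PEX3 across 276 bases, had a log2 fold change of 0.99 in SPO medium over both states against 1.37 for PEX3, and CWC24, divergent from PEX30 across 262 bases, had 0.83 against 0.80. PSF3, divergent from PEX11 across 220 bases, had 0.13 and was not called, against 1.99 for PEX11. SKG6, divergent from PEX28 across 591 bases, had -1.06 against 1.11, and OPT1, divergent from PEX2 across 669 bases, had -1.34 against 0.83.

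In CPM, PEX6, PEX29 and PEX35 had both cured libraries above both prion libraries in preSPO medium and below them in SPO medium. Each order alone was frequent over all genes, at 23.0% in preSPO and 16.2% in SPO medium, and the share with both was not counted. In TPM PEX29 kept both, whereas the states of PEX6 and PEX35 overlapped in preSPO medium. PEX19, PEX21 and PEX34 were among the members with both orders in TPM but not in CPM. The interaction was not called by edgeR for any member, and the state labels of 2 SPO libraries are in doubt.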
